A study of Mus musculus with 6 samples.

Results

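The Sox, Fox, Gata, Klf and Hox genes encode DNA-binding proteins that set and mark cell lineages in the early mouse embryo. Of the 12826 genes in the table, 57 had a plain Sox, Fox, Gata, Klf or Hox symbol as their whole name, with Sox2 and Gata3 left out. They comprised 11 Sox, 21 Fox, 3 Gata, 15 Klf and 7 Hox genes. RNA came from 3 individual ETX-embryos, A, B and C, which are embryo-like bodies grown from stem cells without any treatment, from a line whose T/Brachyury-GFP reporter all 6 samples carry. The trophoblast stem cell (TSC) compartment was cut off, and the embryonic stem cell (ESC) compartment was split along its length. The GFP-negative piece, Side1 in the sample names, is the prospective anterior domain, and the GFP-positive piece, Side2, is the prospective posterior domain. This gave 3 anterior and 3 posterior Smart-seq2 libraries. A piece holds many cells, and the sources used here do not say whether endoderm cells were removed from it.

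Sox proteins bind through an HMG box, Fox proteins through a forkhead domain, Gata and Klf proteins through zinc fingers, and Hox proteins through a homeodomain. In the embryo around gastrulation, Gata4, Gata6, Sox7, Sox17 and the Foxa genes are known for the endoderm lineages, and Klf2, Klf4 and Klf5 for naive pluripotency. Foxh1 carries Nodal signals to DNA, Foxf1 marks posterior and extraembryonic mesoderm, and the Hox genes start in the posterior streak in the order of their place in the cluster. Sox3, Sox21 and Sox10 belong to neural and neural crest lineages.

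Levels are given as log2(FPKM + 1), in the order anterior A, B, C and posterior A, B, C unless stated, with FPKM a fragment count divided by transcript length and by the total of mapped fragments. A level of 0 means only that the gene was listed at 0, because genes of the proteasome, RNA polymerase, chaperonin, translation, splicing and respiratory machinery were also at 0 in each library. Of 102 such genes, 10, 3 and 9 were at 0 in anterior A, B and C, against 2, 1 and 2 in the posterior libraries. Zeros of these genes were thus most frequent in anterior A and C. Over all genes 77.7%, 86.4% and 72.8% were above 0 in the anterior libraries, against 93.7%, 94.7% and 80.0% in the posterior ones. Anterior B thus had fewer zeros than posterior C over the whole table. The posterior libraries were deeper, at 1.56 to 2.84 times anterior A, against 1.41 and 1.43 for anterior B and C. T, the gene behind the reporter, had levels of 0, 0 and 5.44 in the anterior pieces of embryos A, B and C, against 2.59, 4.05 and 0 in their posterior pieces. Embryo C therefore went against its labels for T (mean difference 0.40 ± 5.11, SD over 3 embryos, two-sided p of 1 in an exact permutation test that flips signs by embryo, whose smallest p is 0.25). Mixl1, another streak gene, had no anterior value above 0 and reached 5.64, 6.99 and 4.97 in posterior A, B and C, so in embryo C it followed the labels. Anterior C and posterior C therefore stand for the libraries labelled so, and for some of the factors the estimate is also given without embryo C. Across genes anterior A had the lowest correlations with the other libraries (Spearman 0.57 to 0.66, against 0.63 to 0.87 among the others). Fewer cells of a type and less RNA per cell cannot be told apart in these pieces.

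In the anterior libraries 37, 43 and 35 of the 57 factors were listed above 0, and in the posterior libraries 50, 55 and 45. The share ran from 61.4% in anterior C to 96.5% in posterior B. Over all genes of the table it ran from 72.8% to 94.7% in the same libraries, so the lowest and the highest library were the same for the factors as for the whole table. At a level of at least 1 FPKM the anterior counts were 27, 37 and 26, against posterior counts of 45, 48 and 38. The 3 posterior libraries, which had the higher counts, were also the deeper ones, and the part of depth in the counts was not tested. By family, Hox genes had the lowest share above 0 in the anterior libraries, with 1, 2 and 0 of 7, against 4, 7 and 3 in the posterior libraries. Of the 15 Klf genes, 12, 14 and 11 were above 0 in the anterior libraries, against 12, 15 and 14 in the posterior ones. The Fox family had 15, 16 and 16 of 21 above 0 in the anterior libraries, against 20, 20 and 18 in the posterior ones, and the Sox family 6, 8 and 6 of 11 against 11, 10 and 8.

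**Figure D1:**
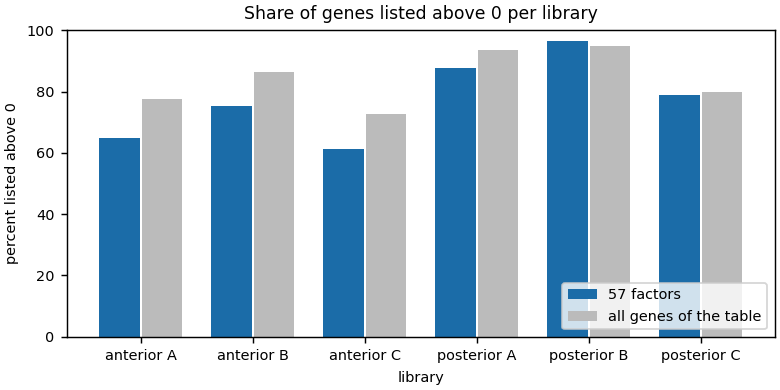
Percent of genes listed above 0 (vertical axis) in each of the 6 libraries (horizontal axis), for the 57 factors (blue) and all 12826 genes (grey), 1 bar per library. The factors lie below the whole table in every library except posterior B, where they reach 96.5% against 94.7%.

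Of the 57 factors, 25 were above 0 in all 6 libraries, 22 in some libraries of both domains, 10 in posterior libraries only, and none in anterior libraries only. The 10 seen only in posterior libraries were Foxa1, Foxf1, Foxr2, Hoxb1, Hoxb2, Hoxb3, Hoxc13, Sox3, Sox10 and Sox15. They made up 17.5% of the factors, against 6.44% of all genes of the table. Foxr2 and Sox3 were above 0 only in posterior A (1.75 and 1.27), and Hoxb3 only in posterior B (1.00). The anterior libraries were also those with more machinery genes at 0, whose part in this was not tested. The factors had a lower median level than the whole table in every library, such as 0.30 against 2.04 in anterior C. In posterior A these medians were 2.68 and 3.03. All genes are thus not matched to the factors in level, and the part of level was not tested. Foxf1, Hoxb1, Hoxb2 and Sox10 were at 0 in every anterior and above 0 in every posterior library, which is 4 of 57 factors, against 1.4% of all genes. The opposite pattern held for 0 of the 57 and for 0.078% of all genes. With detection set at 1 FPKM, 2 of the 4, Foxf1 and Hoxb1, were left, against 1.66% of all genes. At least 1 FPKM in all 6 libraries was reached by 19 factors, or 33.3%, against 39.9% of all genes.

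**Figure D2:**
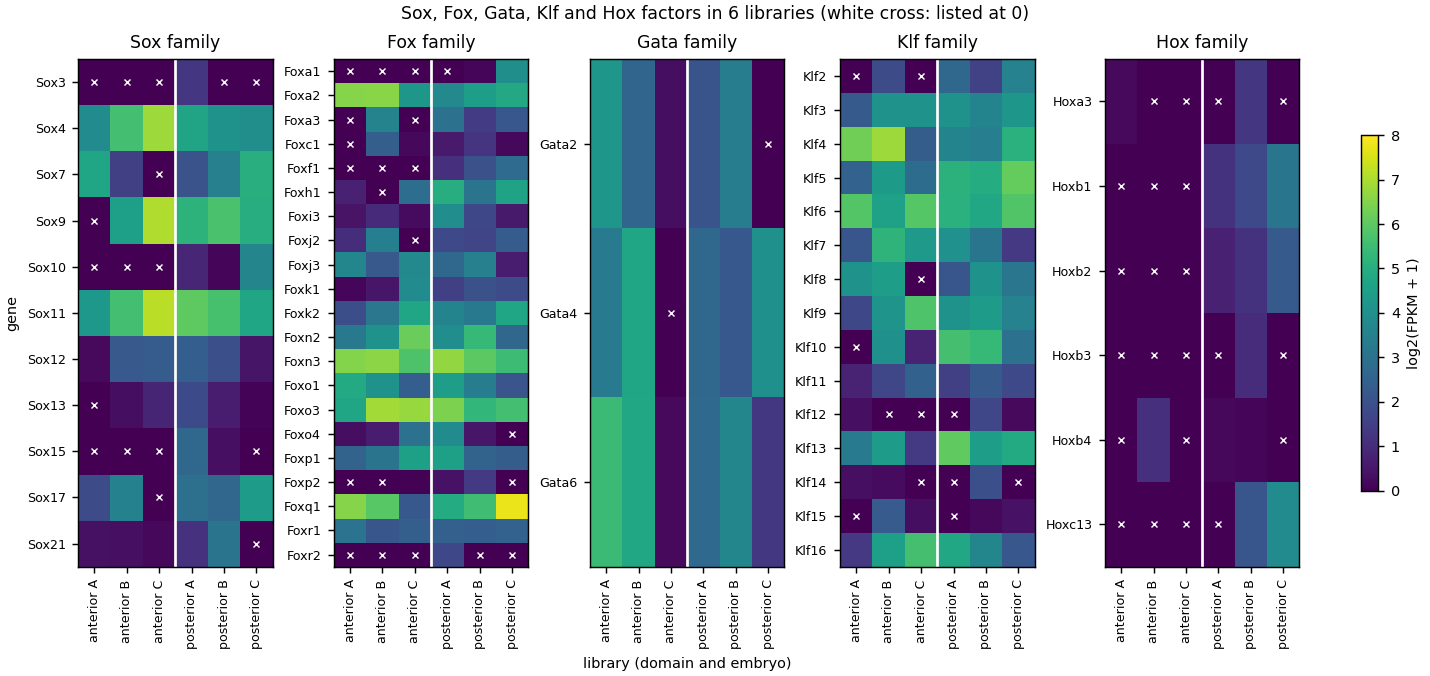
Level in log2(FPKM + 1) (colour scale from 0 to 8) of the factors reported here (rows, by family) in the 6 libraries (columns, anterior left of the white line and posterior right of it). A white cross marks a gene listed at 0. Hoxb1, Hoxb2, Foxf1 and Sox10 have crosses in the 3 anterior columns only, and Gata4, Sox7 and Sox17 have their only cross in anterior C.

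Among endoderm factors, 8 of the 9 listed genes had a row (Gata5 is not analysed here). Gata6, a zinc finger factor of the primitive, visceral and parietal endoderm, was at 5.45, 4.78 and 0.21 in the anterior and at 2.73, 3.67 and 1.29 in the posterior libraries. Gata4, its partner in these layers, was at 3.31, 4.73 and 0 against 2.68, 2.22 and 4.02. Anterior C thus had next to no signal of either, while the other 2 anterior libraries had more than the posterior piece of their own embryo. Sox17, a SoxF factor of visceral and definitive endoderm, was at 1.87, 3.51 and 0 against 2.96, 2.64 and 4.39. Sox7, a related SoxF factor of the extraembryonic endoderm, was at 4.74, 1.53 and 0 against 2.06, 3.48 and 5.05. For these SoxF genes anterior C was again the library at 0, posterior C was the highest library, and the groups overlapped.

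Foxa2, a forkhead factor of the visceral endoderm, node and definitive endoderm, was at 6.54, 6.58 and 4.22 in the anterior and at 3.76, 4.49 and 4.82 in the posterior libraries. It had the highest level of the endoderm factors in anterior C, and the groups overlapped. The related Foxa3 was at 0, 3.57 and 0 against 2.98, 1.43 and 2.19. Foxa1 was at 0 in 4 libraries, at 0.11 in posterior B and at 3.99 in posterior C. The 3 Foxa genes therefore had different patterns, with Foxa2 above 3 in every library and Foxa1 above 1 FPKM in posterior C alone. Foxq1, a further forkhead gene, was at 6.53, 5.91 and 2.19 against 4.93, 5.55 and 7.76, the highest level of any of the 57 factors. Exons of Foxq1, Gata6 and Sox17, like those of Sox4, Sox21, Foxo1, Klf3 and Klf7, overlap another annotated gene on the other strand, so part of their reads could belong to it.

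In posterior minus anterior terms, 5 and 6 of the 8 endoderm factors were higher in the anterior library of embryos A and B, against 29.8% and 45.5% of all genes. In embryo C 8 of 8 were higher in the posterior library, against 49.7% of all genes. Their median difference by embryo was -1.12 in A, -0.99 in B and 4.0 in C. Estimates over all 3 embryos mixed these directions. Foxa2 differed by -1.42 ± 0.87 (SE) over all embryos and by -2.43 ± 0.73 without embryo C (limma adjusted p 0.666 and 0.52). Leaving out embryo A or B instead gave -0.74 ± 0.98 and -1.09 ± 1.22. The estimate for Gata6 was -0.92 ± 1.06, and without embryo C it was -1.92 ± 0.93. Without embryo A or B the Gata6 estimate was -0.01 and -0.82. Gata4 went from 0.29 ± 1.30 to -1.57 ± 1.15 without embryo C. The estimates for Sox7, Sox17, Foxa1, Foxa3 and Foxq1 lay between 1.01 and 1.54, with standard errors of 0.99 to 1.40. Each was lower without embryo C, at -0.37 ± 1.47 for Sox7, 0.11 ± 1.22 for Sox17 and 0.06 ± 0.31 for Foxa1. For Foxa3 it was then 0.42 ± 1.48, and for Foxq1 -0.98 ± 0.74. The Foxa3 estimate was lower still without embryo A, at 0.025 ± 1.505. No endoderm factor passed the adjusted threshold of 0.05 with limma (smallest adjusted p 0.666), and 0 had an unadjusted p under 0.05.

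Markers of the extraembryonic endoderm layers were lowest in the same library, anterior C. Of 17 visceral endoderm markers with a row, 13, 14 and 4 were above 0 in the anterior libraries, against 14, 17 and 11 in the posterior ones. Their summed level was 1140, 1220 and 119 FPKM in the anterior and 921, 3730 and 835 FPKM in the posterior libraries. The defining markers Ttr, Cubn, Hnf4a and Hhex were at 0 in anterior C and in no other library. Rbp4, Amn and Apoa1 were at 0 in anterior C and also in posterior C, with Amn at 0 in anterior A and Apoa1 in posterior A as well. Of 15 parietal endoderm and XEN markers, where XEN is the extraembryonic endoderm stem line, 13, 15 and 11 were above 0 in the anterior libraries, against 15, 15 and 13 in the posterior ones. Their summed level was 1420, 2530 and 322 FPKM in the anterior and 491, 511 and 1030 FPKM in the posterior libraries. The part of these cells in the Gata, Sox and Foxa values was not tested.

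**Figure D3:**
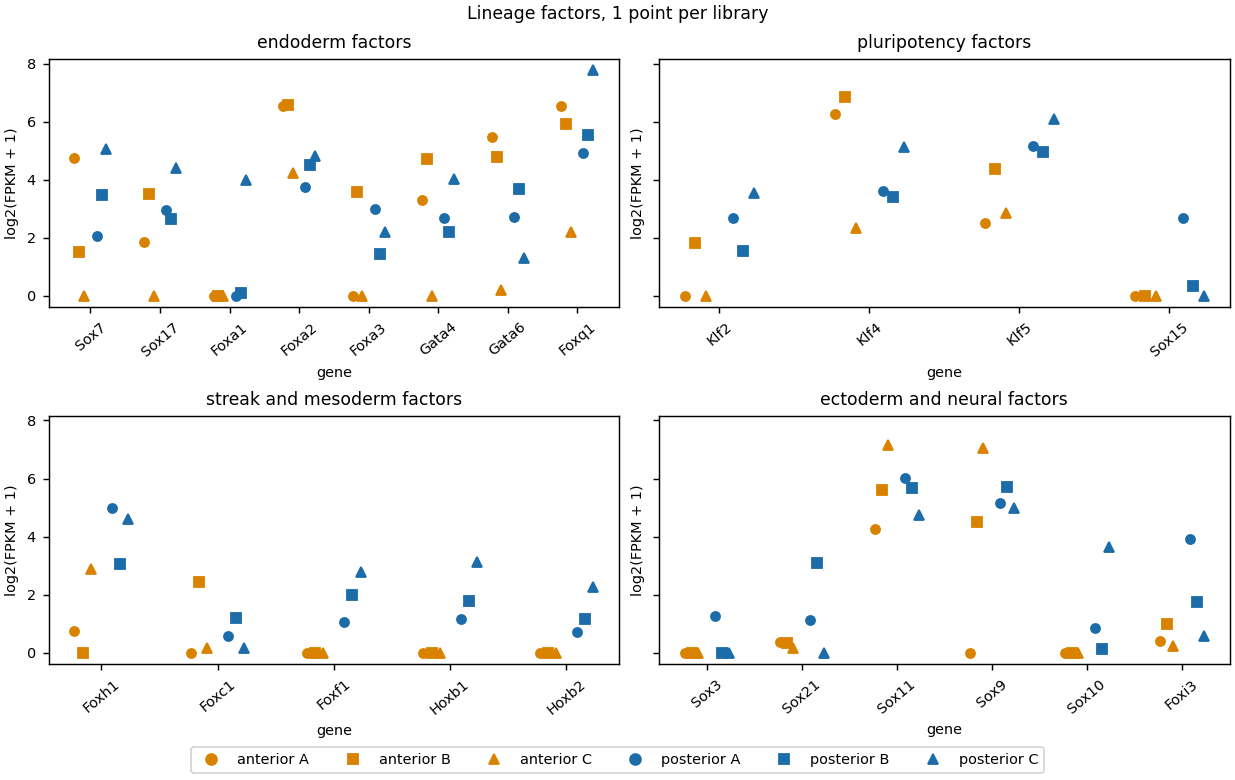
Level in log2(FPKM + 1) (vertical axis) of the lineage factors, 1 point per library, for anterior (orange) and posterior (blue) pieces, with a circle for embryo A, a square for B and a triangle for C. Gata4, Sox7 and Sox17 are at 0 in anterior C, Klf4 is highest in anterior A and B, and Foxf1, Hoxb1, Hoxb2 and Sox10 are at 0 in all 3 anterior libraries.

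The pluripotency factors did not share a pattern. Klf5, which supports self-renewal of embryonic stem cells and is also a trophoblast factor, was at 2.52, 4.37 and 2.84 in the anterior and at 5.15, 4.95 and 6.09 in the posterior libraries. Each posterior value lay above each anterior one, and the estimate was 2.16 ± 0.88 (limma unadjusted p 0.0351, adjusted p 0.608). Without embryo C it was 1.61 ± 0.95 (limma unadjusted p 0.14). Klf2, a naive pluripotency factor, was at 0, 1.82 and 0 against 2.69, 1.55 and 3.54, with overlap in embryo B. Klf4, a reprogramming factor that is also expressed in epithelia, was at 6.28, 6.83 and 2.35 against 3.61, 3.41 and 5.11. It was higher in the anterior piece of embryos A and B and higher in the posterior piece of embryo C. The Klf4 estimate was -1.11 ± 1.18 over all embryos and -3.04 ± 0.76 without embryo C (limma unadjusted p 0.372 and 0.00678, adjusted p 0.8 and 0.52). Leaving out embryo A or B instead gave -0.33 ± 1.43 and 0.05 ± 1.62 (limma unadjusted p 0.823 and 0.977). Sox15, a relative of Sox2 found in embryonic stem cells, was listed at 0 in every anterior library, against 2.69, 0.33 and 0 in posterior A, B and C. Its exons overlap Mpdu1 on the other strand, and Smart-seq2 does not mark strand, so reads of these genes cannot be told apart. Sox2 itself, which is not among the 57, was at 0.81, 0.81 and 5.43 against 3.77, 4.63 and 5.84. Foxd3 and Klf17 are not analysed here. Of the 15 epiblast markers, 10, 11 and 12 were above 0 in the anterior libraries, against 15 in each posterior one. Their summed level was 23.7, 130 and 383 FPKM against 706, 433 and 739 FPKM, and their part in the Klf5 and Klf2 values was not tested.

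Of 10 listed streak and mesoderm factors 6 had a row, while Foxc2, Foxf2, Foxl1 and Sox18 are not analysed here. Foxh1, the forkhead partner of Smad2 and Smad3 in Nodal signalling (chromosome 15, 76668225 to 76669948, minus strand), was at 0.75, 0 and 2.89 in the anterior and at 4.98, 3.08 and 4.60 in the posterior libraries. The groups did not overlap, though anterior C lay just under posterior B. Foxh1 had the smallest p of the 57 factors between domains, with an estimate of 3.01 ± 1.00 (limma unadjusted p 0.0143, adjusted p 0.561). Without embryo A, B or C the limma unadjusted p of Foxh1 was 0.148, 0.0912 and 0.0182. Foxf1, a forkhead factor of extraembryonic and lateral mesoderm (chromosome 8, 121084386 to 121088144, plus strand), was listed at 0 in every anterior library, against 1.08, 1.99 and 2.80 in posterior A, B and C. Its exons overlap the gene Gm27530 on the other strand, so its reads are uncertain. Foxc1, a factor of paraxial mesoderm, was at 0, 2.43 and 0.17 against 0.57, 1.20 and 0.16, with no order between the domains. Of the 14 streak and nascent mesoderm markers with a row, 4, 6 and 7 were above 0 in the anterior libraries, against 14, 14 and 13 in the posterior ones. The pieces were cut by the T reporter, which is itself a streak gene.

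The Hox genes did not exceed 1.5 in any anterior library, and more of them were above 0 in each posterior library than in the anterior piece of the same embryo. In posterior C, Hoxb1 and Hoxc13 lay above that library's median over all genes (2.75). Hoxb1, the first gene of its cluster to be expressed (chromosome 11, 96365752 to 96368256, plus strand), was listed at 0 in every anterior library, against 1.16, 1.78 and 3.11 in posterior A, B and C. Its neighbour Hoxb2 was at 0 against 0.72, 1.18 and 2.27. Both were highest in posterior C, the library with T at 0. Hoxa3, Hoxb3 and Hoxb4 did not exceed 1.25 in any library, with Hoxa3 at 0.20 in anterior A and 1.25 in posterior B, and Hoxb4 highest in anterior B (1.08). Hoxc13, a gene of the far end of its cluster known for hair and nail (chromosome 15, 102921103 to 102928814, plus strand), was listed at 0 in every anterior library, against 0, 2.13 and 3.85 in posterior A, B and C. It had the highest mean level of the Hox genes, at 2.81 FPKM against 1.89 FPKM for Hoxb1. Without embryo C these means were 0.848 FPKM and 0.918 FPKM. Exons of Hoxb2 and Hoxb3 overlap Hoxb3os on the other strand, and those of Hoxa3 overlap Gm28308 on its own strand and 5730596B20Rik, Gm29430, Hoxaas2 and Hoxaas3 on the other, so those values are uncertain. Hoxa7 is joined in 1 entry with Mira and was not counted among the 57.

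Promoter sequence is shown for 4 factors on which the account above turns and for which RefSeq (GRCm38.p6) lists a start, from 250 to 31 bases before it, written 5' to 3' along the gene. Hoxb1 stands for the genes at 0 in the anterior libraries, Klf2 and Klf4 for pluripotency factors with unlike patterns, and Foxa2 (the first of its 3 listed starts) for the endoderm factor with the highest level in anterior C. Capitals mark matches on either strand to 7 short words.
Hoxb1, chr11:96365508-96365727, plus strand: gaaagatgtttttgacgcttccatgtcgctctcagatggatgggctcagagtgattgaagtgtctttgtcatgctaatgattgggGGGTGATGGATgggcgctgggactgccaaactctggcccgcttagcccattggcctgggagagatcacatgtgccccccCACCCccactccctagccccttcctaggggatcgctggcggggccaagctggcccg
Klf2, chr8:72318812-72319031, plus strand: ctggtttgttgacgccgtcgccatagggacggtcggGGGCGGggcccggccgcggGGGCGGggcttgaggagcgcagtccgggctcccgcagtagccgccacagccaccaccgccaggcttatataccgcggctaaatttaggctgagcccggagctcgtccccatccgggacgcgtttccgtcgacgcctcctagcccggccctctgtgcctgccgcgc
Klf4, chr4:55532506-55532725, minus strand: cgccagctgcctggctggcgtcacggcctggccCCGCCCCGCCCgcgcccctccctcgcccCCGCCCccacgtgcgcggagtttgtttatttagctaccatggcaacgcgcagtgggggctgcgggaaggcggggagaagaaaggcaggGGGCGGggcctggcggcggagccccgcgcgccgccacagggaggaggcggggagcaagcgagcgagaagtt
Foxa2, chr2:148047000-148047219, minus strand: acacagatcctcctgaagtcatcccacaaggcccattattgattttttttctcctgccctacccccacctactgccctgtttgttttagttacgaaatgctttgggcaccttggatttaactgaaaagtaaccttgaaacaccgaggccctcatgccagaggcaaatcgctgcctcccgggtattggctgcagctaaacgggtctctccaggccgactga
The words were the Klf box CACCC, the GC box GGGCGG bound by Sp and Klf proteins, the GATA box AGATAA, the forkhead word TGTTTAC, the Sox word ACAATG, the Hox-Pbx word TGATNNAT and the TCF/LEF word CTTTGA. Hoxb1 held 2 Klf boxes and 1 Hox-Pbx word, and the first Klf box overlaps that word. Klf2 held 2 GC boxes, Klf4 held 4, and Foxa2 held none of the 7 words. Of the 57 factors 35 had a promoter entry, with 41 starts in all. A GC box stood in 68.3% of these windows and in 28.5% of all 32851 windows. A Klf box stood in 48.8% and 47.8%, and a GATA box in 2.44% and 9.04%. The forkhead word stood in 7.32% and 2.81%, the Sox word in 4.88% and 9.78%, the Hox-Pbx word in 2.44% and 6.94%, and the TCF/LEF word in 4.88% and 12.6%. A match is a run of letters and not a bound site.

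Ectoderm and neural factors split between genes that were high in most libraries and genes near 0. Sox11, a SoxC factor of neural progenitors, was at 4.26, 5.62 and 7.17 in the anterior and at 6.02, 5.67 and 4.73 in the posterior libraries. Sox9, a SoxE factor of neural crest, cartilage and several epithelia, was at 0, 4.50 and 7.04 against 5.17, 5.70 and 5.0. Sox4, listed with the broadly expressed factors and not with these, is a SoxC factor of many progenitor cells. Its levels were 3.87, 5.60 and 6.83 against 4.68, 4.08 and 3.94. Sox11, Sox9 and Sox4 had their highest value in anterior C, the anterior library with T at 5.44 and with little endoderm signal, and the groups overlapped. They were also the Sox genes with the highest mean levels, at 58.1, 44.8 and 38.1 FPKM for Sox11, Sox9 and Sox4. The range of Sox9, 7.04 in log2, was the widest of the 57 factors and came from the 0 in anterior A. The Sox9 estimate was 1.45 ± 1.23 over all embryos, 3.19 ± 1.23 without embryo C and -0.42 ± 0.95 without embryo A.

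Sox10, the neural crest SoxE factor, was listed at 0 in every anterior library, against 0.85, 0.13 and 3.65 in posterior A, B and C, so only posterior C exceeded 1 FPKM. Sox21, a SoxB repressor of neural progenitors, was at 0.36, 0.34 and 0.18 against 1.14, 3.09 and 0. Sox3, a SoxB1 factor of the neural plate, was listed above 0 only in posterior A. These SoxB and SoxE genes each had a single library above 2 or none. Foxi3, a forkhead factor of the placodes and their ectoderm, was at 0.42, 0.98 and 0.23 against 3.92, 1.74 and 0.56, higher in the posterior piece of each embryo, though posterior C lay below anterior B. Adjusted p with limma was 0.666 for Sox10, 0.735 for Sox21 and 0.678 for Foxi3. Sox1, Foxb1 and Foxj1 are not analysed here.

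Gata2, a factor of trophoblast and of blood progenitors, was at 4.24, 2.60 and 0.30 in the anterior and at 2.07, 3.36 and 0 in the posterior libraries. Both pieces of embryo C were low and the other 4 libraries lay above 2. Gata3, left out of the 57, did not follow it, at 4.35, 4.84 and 6.82 against 2.80, 4.61 and 4.17. Of 15 trophoblast markers with a row, 10 were above 0 in each anterior library and 15, 15 and 13 in the posterior libraries. Elf5 and Esrrb were at 0 in the 3 anterior ones, and Elf5 was at 0 in posterior C as well. The summed level of the markers was 413, 569 and 298 FPKM in the anterior and 409, 705 and 820 FPKM in the posterior libraries. Their part in the Gata2 values was not tested. Gata1, Klf1 and Sox6 are not analysed here.

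Of 25 broadly expressed factors on the list 23 had a row. The highest mean levels over the 6 libraries were those of Foxn3, Foxo3 and Klf6. Foxn3, a forkhead repressor linked to the cell cycle checkpoint, was at 6.51, 6.60 and 5.78 in the anterior and at 6.71, 5.99 and 5.47 in the posterior libraries, a range of 1.24. Foxo3, a target of insulin and PI3K signalling, was at 4.73, 6.91 and 6.77 against 6.42, 5.31 and 5.61. Klf6, an early response factor, was at 5.84, 4.57 and 5.89 against 5.12, 4.80 and 5.84. These 3 genes were above 4.5 in every library and showed no order between domains. Foxr1, which is not on that list, varied least of all, between 2.14 and 3.03. For Foxo1 alone, another Foxo factor, the anterior piece was the higher one in 3 of 3 embryos (4.90, 4.09 and 2.39 against 4.48, 3.4 and 2.11), by 0.43, 0.69 and 0.28.

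Klf10 and Klf13 stood out from the other broadly expressed Klf genes by their p between domains. Klf10, induced early by TGF-beta signals, was at 0, 4.0 and 0.81 against 5.65, 5.37 and 3.00, and anterior B lay above posterior C. Its estimate was 3.07 ± 1.10 (limma unadjusted p 0.0196, adjusted p 0.571). Without embryo A the Klf10 estimate was 1.78 ± 1.36, and the limma unadjusted p without A, B or C was 0.222, 0.063 and 0.034. Klf13 was at 3.30, 4.42 and 1.36 against 6.05, 4.45 and 4.89, with anterior B and posterior B nearly level, and its estimate was 2.10 ± 0.95 (limma unadjusted p 0.0536, adjusted p 0.617), or 1.39 ± 0.97 without embryo C. Other members of the list lay higher in anterior C than in any other library, among them Klf9 (5.81, other libraries 1.73 to 4.40), Klf16 (5.65, others 1.34 to 4.81), Foxn2 (6.19, others 2.65 to 5.37) and Foxk1 (3.86, others 0.13 to 1.99). Of all 57 factors, 11 had their highest level in anterior C, or 19.3%, against 16.3% of all genes. Over the 20 list members in the fit, 10 were higher in the posterior and 10 in the anterior domain on average, with a median difference of -0.09. The median over all genes was 0.43.

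Between domains, 44 of the 57 factors had a mean of at least 1 FPKM and entered the fit with the 10914 genes kept. None of them passed an adjusted p of 0.05 with limma (smallest 0.561), and 0.0% of all genes did. At an unadjusted p under 0.05 there were 5 factors higher in the posterior domain, Foxh1, Klf10, Klf5, Hoxb1 and Foxf1, or 11.4% of 44, against 7.24% of all genes. There were 0 higher in the anterior domain, against 0.788%. A gene near 1 FPKM enters the fit more readily if 1 domain is high, so the count over those kept is not support for a difference. With no filter, 7 of 57 were higher in the posterior domain (12.3%, against 7.28% of all genes), the further 2 being Hoxc13 and Klf13, and 0 in the anterior (against 0.78%). Without embryo C the counts were 5 (against 8.23%) and 2 (against 1.28%), and the 2 higher in the anterior domain were Foxa2 and Klf4. Without embryo A they were 3 (against 3.19%) and 1 (Sox4, against 0.907%), and without embryo B 2 (against 3.71%) and 0 (against 0.33%). After each library was centred on its median the counts were 2 (against 3.93%) and 0 (against 2.72%).

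The same comparison by embryo gave 38 of 57 factors higher in posterior A than in anterior A, against 66.4% of all genes. In embryo B there were 32, against 51.3%, and in embryo C 27, against 49.7%. Those higher in the anterior piece numbered 15 in A (against 29.8%), 23 in B (against 45.5%) and 22 in C (against 37.8%). In 3 of 3 embryos the posterior library was higher for 10 factors, Foxf1, Foxh1, Foxi3, Foxk2, Hoxb1, Hoxb2, Klf5, Klf10, Klf13 and Sox10, against 19.7% of all genes. The anterior library was higher in 3 of 3 for Foxo1 alone, against 7.41%. All posterior values lay above all anterior values for 7 factors (Foxf1, Foxh1, Hoxb1, Hoxb2, Klf5, Klf13 and Sox10), against 11.4% of all genes, and the reverse held for 0, against 3.39%. The median difference over the 44 factors was 0.28, and that over all 10914 genes was 0.43.

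**Figure D4:**
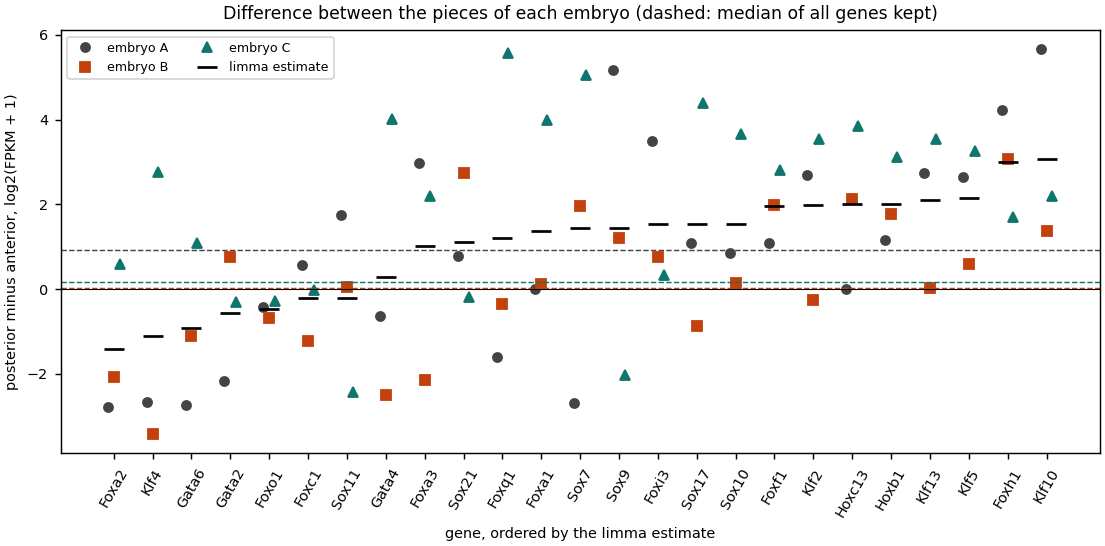
Posterior minus anterior difference in log2(FPKM + 1) (vertical axis) for 25 named factors in order of the limma estimate (black bar), with a circle for embryo A, a square for B and a triangle for C. Dashed lines give each embryo's median over all genes kept (0.91, 0.03 and 0.17). Foxf1, Foxh1, Foxi3, Hoxb1, Klf5, Klf10, Klf13 and Sox10 have all 3 points above 0. Foxa2, Foxq1, Gata4, Gata6 and Klf4 have embryo C above 0 and the other embryos below.

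Among embryos, 0 of 44 factors passed an adjusted p of 0.05 in limma's F test, as did 0.0% of all genes, and 1 had an unadjusted p under 0.05, against 2.77% of all genes. It was Gata6 (unadjusted p 0.0393, adjusted p 0.996), with both pieces of embryo C the lowest of their domain. The next by p were Gata2 (unadjusted p 0.0698), Sox9 (0.112), Foxo1 (0.123) and Klf10 (0.161).

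Relatives and partners of these families were listed too, such as the Sp, Cdx and Tle genes. Of 36 listed genes 30 had a row and 26 entered the fit, of which 19 were higher in the posterior and 7 in the anterior domain on average. Their median difference was 0.40, near that of all genes. At an unadjusted p under 0.05 there were 2 of the 26, both higher in the posterior domain, where 7.24% of all genes were called. The share of all genes called higher in the anterior domain was 0.788%. Sp5, a Klf relative and Wnt target, was listed at 0 in every anterior library, against 4.83, 3.92 and 4.91 in posterior A, B and C (limma adjusted p 0.52). Sp8, a related factor of neural and limb ectoderm, was at 3.97, 4.52 and 6.65 against 7.50, 6.58 and 6.65 (limma adjusted p 0.617), with anterior C level with posterior C. Sp7, Sp9, Cdx2, Cdx4, Zfpm2 and Tle2 are not analysed here.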

How the data were processed

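RNA from 6 pieces of 3 ETX-embryos was measured with Smart-seq2, using 18 cycles of preamplification and a HiSeq 2500, per the labels' protocols. Per the labels' protocols, HTSeq-count was run on reads aligned to mouse Ensembl 38.77. The submitters' processing notes list TopHat2 2.0.4, build mm10 and Cufflinks 2.0.2. The sources used here do not say which step produced the values or how they were normalized further. The authors deposited 1 table whose values are log2(FPKM + 1): undoing that scale turned 99.1% to 99.5% of a library's values above 3 into numbers of 6 or fewer significant digits, while a natural logarithm did so for 2.27% or fewer. Absolute depth is unknown. Relative depth was read from the steps of 1 read among genes under 1 FPKM, as the most frequent log2 ratio to anterior A (tolerance 0.01, 6.68% to 13.9% of genes on it).

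Groups follow the labelled domain. Genes whose mean reached 1 FPKM were fitted with limma 3.58.1 in R 4.3.3, two-sided, with a block for the embryo, as each embryo gave both pieces, a mean-variance trend, and Benjamini-Hochberg adjustment over 10914 genes. The fit has 2 residual and 7.5 prior degrees of freedom. It was also run on simulated data, with a fixed noise that was not taken from these libraries. That run cannot show the power of the fit or the calibration of its p-values in these data. Deviations of paired pieces from their domain means correlated at -0.07, 0.04 and -0.03 in embryos A, B and C. These values show no embryo effect shared by both pieces, so the block rests on the dissection alone. In the fit with the block, p-values between domains rest on the spread of the posterior minus anterior difference over 3 embryos. This spread is moderated by limma toward that of other genes. The test among embryos uses the same remaining spread, as no piece has a replicate. A difference on this scale understates changes of low genes.

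The factors, gene lists and tests were chosen with earlier results of these data known. Values in every library are given for members of the 4 lineage lists, for those at 0 in 1 domain and above 0 in the other, for the 8 with the smallest p between domains and the 5 among embryos, and for the 3 highest of each family. The values of 1 member of these lists are not reported here, though it stays in the counts. Further factors named as examples were chosen after their values were seen. Of the joined entries 4 hold a symbol of these families or of Sox2ot and were left out. Gene positions and exon overlaps come from GENCODE M21 on the same build. Alternatives were no block, 2 other scalings, 2 other filters, a pseudocount of 0.1, no trend, and leaving out embryos or anterior libraries.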

Additional observations from a re-analysis of the deposited data

How the results depend on the processing

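No factor passed the adjusted threshold of 0.05 with limma under any alternative run (smallest adjusted p 0.395), between domains or, where the embryo was a block, among embryos. Shares in parentheses are those of all genes. Without the replicate block 6 factors (8.36%), against 5 in the paired fit (7.24%), were higher in the posterior domain at an unadjusted p under 0.05. That count was 2 after median centring (3.93%), 2 after quantile normalization (4.7%), 3 with a filter at 5 FPKM (7.31%) and 2 to 5 when single embryos were left out (3.19% to 8.23%). The anterior count was 0 to 2 without single embryos (0.33% to 1.28%), 1 without anterior A alone (1.75%) and 3 without anterior C alone (2.13%), the latter fits having no block. Of all genes, 790 were higher in the posterior and 86 in the anterior domain at that p, and after median centring 429 and 297. Without anterior C 1 gene of the table, Mir682, named after its value was seen and none of the 57, passed the adjusted threshold. The median difference of the factors was -0.41 after quantile normalization. It was -0.21 after median centring and -0.20 with the filter at 5 FPKM. Factors at 0 in the anterior and above 0 in the posterior libraries numbered 2 with detection at 1 FPKM (1.66%) and 6 to 7 without single embryos (2.87% to 5.01%). Factors without overlap numbered 11 to 17 with the posterior higher (18.8% to 31.2%) and 2 to 7 with the anterior higher (8.1% to 13.0%) when embryos were left out, where only 2 libraries a domain remain.

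Of 290 differences of 25 named factors under the alternatives, 272 kept their direction. Dropping only the block, the filter or the trend, or filtering at 5 FPKM, leaves an estimate unchanged by construction. Those values could not change direction, and the 272 include them, so the count overstates how stable the directions are. Leaving out single embryos moved Sox7 between -0.37 and 3.50, Gata4 between -1.57 and 1.69, Foxq1 between -0.98 and 2.61, Klf4 between -3.04 and 0.049, Foxc1 between -0.62 and 0.28, Sox11 between -1.19 and 0.90, Sox9 between -0.42 and 3.19, and Gata2 between -1.24 and 0.23. With no block and without anterior C, Gata4 was -1.05, Foxq1 -0.14 and Sox11 0.53. With no block and without anterior A, Gata6 was 0.067, Sox9 -0.48, Gata2 0.36 and Foxo1 0.09. Gata4 was -0.20 after median centring and -0.51 after quantile normalization, and Foxc1 was 0.27 with a pseudocount of 0.1. Apart from fewer libraries in these fits, the cause was not tested. The shallower anterior libraries limit what a level of 0 can show.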

Other observations

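Entries of the table that join a symbol of these families with a neighbouring gene gave values that cannot be assigned to 1 gene. The entry joining Foxm1, a forkhead factor of the cell cycle, with 4933413G19Rik had anterior levels of 3.67, 2.92 and 3.71 for embryos A, B and C, with posterior levels of 4.13, 2.91 and 2.99, so it was above 0 in all 6 libraries. The entry joining Foxp3 with 4930524L23Rik was at 1.90, 1.35 and 0 against 0.48, 1.25 and 2.71. The entry joining Hoxa7 with Mira was at 0.98 in anterior A, 2.44 in posterior B and 0 elsewhere. The entry joining Sox2ot, the transcript that spans Sox2, with Mir1897 was at 0.12 in posterior B, 2.78 in posterior C and 0 elsewhere.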
